A study of Mus musculus with 6 samples.

Results

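The 49 genes described here encode proteins of the mesenchymal cell state and of the extracellular matrix, the protein scaffold around cells. They were taken by symbol from a list of transcription factors, cytoskeletal and adhesion proteins, collagens, matrix glycoproteins, proteases, cross-linking enzymes, integrins and growth factors. All 49 were found among 48526 gene identifiers, 36 passed the filter on low counts and were tested, and 13 were not. The data are RNA sequencing counts from mouse KP cells, a name that the labels do not explain. They comprised 3 stable lines, each with its own Npm1 hairpin under the control of doxycycline, and are called lines 3, 4 and 5 after the hairpins' numbers. Each line was sequenced once without doxycycline and once after treatment with 100 ng/ml of it, which gave 6 libraries, 3 per group. Every library thus came from puromycin-selected cells that carried the vector, and no library came from cells given doxycycline without a hairpin against Npm1, so that the drug and the knockdown cannot be told apart. Npm1 encodes nucleophosmin, an abundant nucleolar protein.

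In the transition from an epithelial to a mesenchymal state, cells lose contacts with their neighbours and gain the intermediate filament protein vimentin, N-cadherin, fibronectin and collagens. Transcription factors of the Snail, Twist and Zeb families drive this program, and TGF-beta is the best-known signal for it. The matrix that cells secrete is built from collagens and glycoproteins, is cut by matrix metalloproteinases, and is read by integrins at the cell surface.

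The libraries held 24391198 to 27341036 counts in genes, of which 3 counts correspond to 0.099 to 0.137 CPM (read counts scaled to the library total, with TMM factors). Npm1 was at 2000, 1850 and 1920 CPM in lines 3, 4 and 5 without doxycycline and at 67.7, 244 and 399 CPM with it (log2 fold change -3.02 with SE 0.49, edgeR adjusted p = 0.011). The edgeR adjusted p of Npm1 was 0.0937 without the untreated library of line 3 and 0.177 without both libraries of line 4. Libraries of the treated group differed more among themselves than those of the untreated group, with a chi-square per degree of freedom of 35.8 to 108 against 7.86 to 22.6. Keratins were among the abundant genes, and 15 epithelial markers summed to 15600 to 17900 CPM in the untreated and 11900 to 16600 CPM in the treated libraries. Most of the sum was Krt7, Krt8, Krt18 and Krt19, which averaged 5510, 4060, 3610 and 3190 CPM without doxycycline. The E-cadherin gene Cdh1 averaged 408 ± 34.6 CPM without and 365 ± 32.3 with doxycycline (SD, n = 3 each). Among the other epithelial markers, Ocln averaged 81.3 CPM without and 73.2 with doxycycline, and Epcam 47.6 and 34.3 CPM. Some markers of the list were scarce. Grhl2 averaged 0.413 and 0.664 CPM, and Esrp1 had 9 and 17 counts, without and with the drug. Of these 15 markers 13 were tested, and only the tight junction gene Cldn4 passed, lower with doxycycline (log2 fold change -1.23, edgeR adjusted p = 0.0325). That call was lost with 1 library fewer, at an edgeR adjusted p of 0.19, 0.135 and 0.0665 without the untreated libraries of lines 3, 4 and 5 and 0.0518 without the treated one of line 4. Of 12 fibroblast markers 3 were tested, Fbln1, Pdgfra and Thy1, and the list summed to 18.5 to 25.7 CPM in the untreated and 13.3 to 20.4 CPM in the treated libraries. Fbln1 averaged 15.5 ± 3.73 and 12.9 ± 1.29 CPM and Pdgfra 3.42 ± 0.308 and 2.71 ± 2.65 CPM, without and with the drug (SD, n = 3 each). Thy1, which mouse T lymphocytes express too, fell from 3.01 ± 0.903 to 0.0525 ± 0.0472 CPM (edgeR adjusted p = 0.00102). Lum, Dpt and Tcf21 had 0 counts in every library, and Dcn had 2 counts without doxycycline and 4 with it. Of 9 smooth muscle and pericyte markers 2 were tested, and the list summed to 9.02 to 10.8 CPM in the untreated and 2.45 to 6.13 CPM in the treated libraries. The pericyte gene Rgs5 was at 6.23, 4.58 and 4.1 CPM without and 0.503, 2.67 and 0.88 CPM with doxycycline (edgeR adjusted p = 0.0916), and the desmin gene Des averaged 4.45 ± 0.221 and 2.72 ± 1.96 CPM. Myh11, Cnn1 and Actg2 had at most 5 counts per group of 3 libraries. Genes of blood cells moved with the treatment. Of 25 macrophage markers 22 were tested and 18 rose, with a summed level of 404 to 468 CPM in the untreated and 472 to 715 CPM in the treated libraries. Most of the untreated sum was Mrc1, which did not pass, at 413, 385 and 348 CPM without and 160, 228 and 380 CPM with doxycycline. Lyz2, the lysozyme gene of myeloid cells, rose from 8.32 ± 2.22 to 98.9 ± 43.2 CPM. Of 22 T and NK lymphocyte markers 19 were tested and 15 fell, from a sum of 35.9 to 46.8 CPM to one of 8.78 to 10.9 CPM, with Cd3d, Cd8b1, Nkg7, Gzma and Prf1 at 0 counts with doxycycline. The part of any of these cells in the levels of the matrix genes was not tested.

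The 49 genes spanned several orders of magnitude. Levels are compared between genes as CPM per kilobase of the longest annotated transcript, averaged over the 6 libraries. Spp1, which encodes the secreted phosphoprotein osteopontin, was the most abundant at 1440 CPM per kb, with 975 to 1990 over the libraries. Vim followed at 540 and Itgb1, the beta subunit shared by many integrins, at 172 CPM per kb. The collagen-binding glycoprotein gene Sparc was at 101, the metalloproteinase inhibitor gene Timp2 at 71.4 and Ctgf at 40.5 CPM per kb. The ranges of Spp1 and Vim did not overlap over the libraries, whereas those of Sparc and Timp2 did. At the other end were the 13 untested genes, among them the fibrillar collagen genes Col1a2, Col3a1 and Col5a2, the periostin gene Postn and the lysyl oxidase gene Lox. These 13 genes had at most 11 counts in any library.

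**Figure D1:**
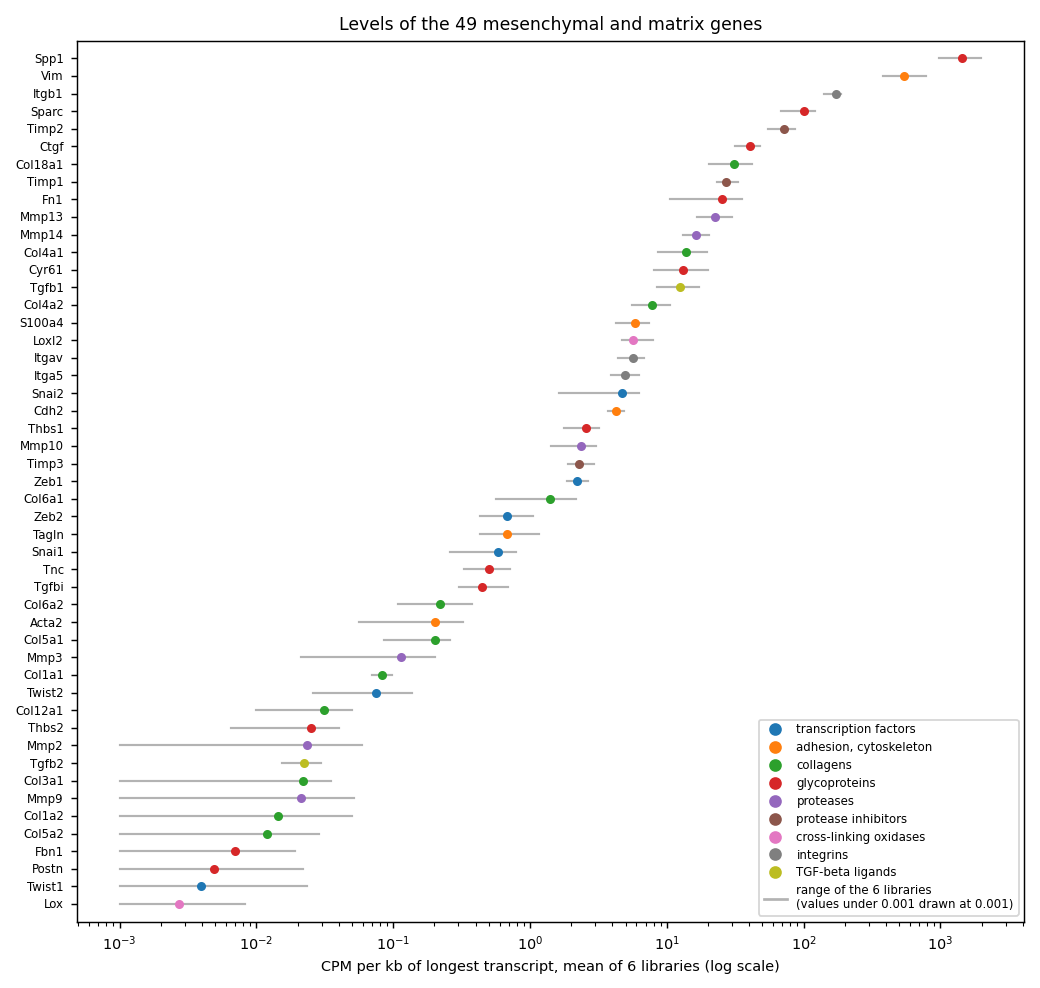
Level of each of the 49 genes as CPM per kilobase of its longest annotated transcript (log scale), with points for the mean of the 6 libraries, lines for their range and colours for the role of the gene. Spp1 (1440) and Vim (540) stand at the top, and Lox, Twist1, Postn and Fbn1 at the bottom.

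Comparison of the 3 treated with the 3 untreated libraries asked whether these genes changed when the hairpins were induced. No member passed the threshold: edgeR's quasi-likelihood test called 0 of 36 at an adjusted p under 0.05, where it called 332 of all 14531 genes tested, or 2.28%. Most members nevertheless had lower values with doxycycline. The log2 fold change was below 0 in 27 of 36 (75%), against 49.6% of all genes tested, and its median was -0.24 against 0.0031. At an unadjusted p under 0.05, 12 members were lower (33.3%, against 7.96% of all genes), namely Vim, Fn1, Col4a1, Col6a1, Col6a2, Col18a1, Sparc, Ctgf, Tgfbi, Mmp14, Itga5 and Tgfb1. Only the smooth muscle actin gene Acta2 and the actin-binding transgelin gene Tagln were higher at that level (5.56%, against 8.33% of all genes). The 3 treated libraries lay below all 3 untreated ones in 11 members (30.6%, against 11.2% of all genes), and above all of them in 2, again Acta2 and Tagln (5.56%, against 11.3%). A 2-sided exact permutation test gave p = 0.1 for each of these 13 members, the smallest that 3 against 3 libraries allow.

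Other fits called some members. DESeq2, which kept more genes, called 5 members lower, Vim, Col6a1, Col18a1, Sparc and Tgfb1, of 42 with an adjusted p, where it called 2.17% of all its genes lower. Without the treated library of line 3, edgeR called 8 members lower, these 5 with Mmp14, Ctgf and Timp2, against 5.79% of all genes. Without both libraries of line 3 edgeR called the same 5 as DESeq2, against 2.71% of all genes. Without the filter on low counts edgeR called 7 of 49 members. They were Vim, Fn1, Col4a1, Col6a1, Col18a1, Sparc and Tgfb1, each with a value below 0 in the main fit. The unfiltered fit called 1052 genes against 332 in the main fit. Its share of all genes fitted was not computed, so the 7 calls have no background beside them. With the line added as a replicate block edgeR called 0 of 36 members and 243 genes.

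**Figure D2:**
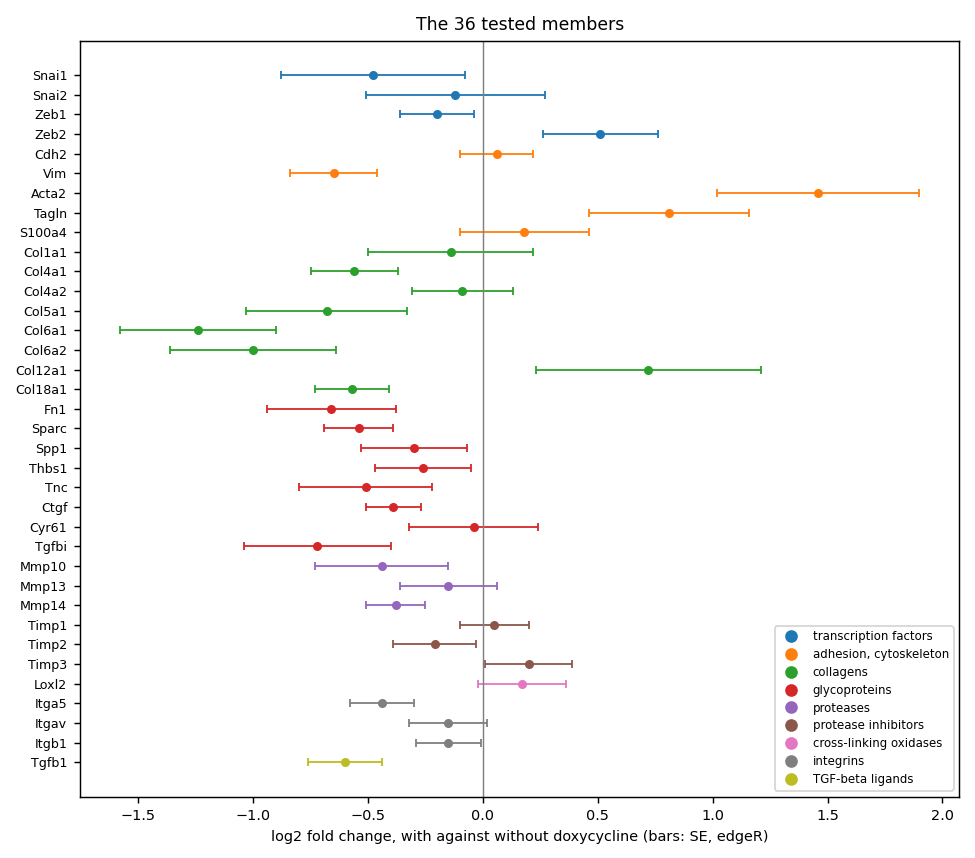
Log2 fold change with against without doxycycline of the 36 tested genes, grouped and coloured by role, with bars for the standard error from edgeR. Col6a1 (-1.24) and Col6a2 (-1) are farthest to the left and Acta2 (1.46) is farthest to the right.

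Among the transcription factors of the mesenchymal program, 0 of 4 tested genes passed and 3 of 4 values were below 0. Snai2, which encodes Slug, was at 10.9, 9.01 and 9.63 CPM in lines 3, 4 and 5 without doxycycline and at 12.6, 3.27 and 11.5 CPM with it. The treated library of line 4 alone was low, and the groups overlapped. Zeb2, a repressor of the E-cadherin gene, was at 5.96, 5.48 and 3.95 CPM without and 6.36, 9.53 and 5.93 CPM with doxycycline (log2 fold change 0.51 with SE 0.25, edgeR adjusted p = 0.356). Its ratio was above 0 in each line, and its groups overlapped by a narrow margin. Its relative Zeb1 averaged 13.8 ± 1.58 CPM without and 12 ± 1.09 with doxycycline (SD, n = 3 each). Snai1, which encodes Snail, was at 1.1 ± 0.257 and 0.782 ± 0.326 CPM, without and with the drug. Twist1 had a single count over all 6 libraries, and Twist2 had 13 counts without and 16 with doxycycline.

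The cytoskeletal and adhesion genes did not move together. Vim (mm10 chromosome 2, 13573927 to 13582826, plus strand), the gene of vimentin, was at 1510, 2280 and 1990 CPM in lines 3, 4 and 5 without doxycycline and at 1370, 1200 and 1110 CPM with it. All 3 treated libraries were below the untreated ones, but line 3 differed little. The log2 fold change of Vim was -0.65 (SE 0.19, edgeR adjusted p = 0.123; DESeq2 adjusted p = 0.0157). Cdh2, which encodes N-cadherin, averaged 20.2 ± 2.41 CPM without and 21 ± 2.85 with doxycycline (SD, n = 3 each), and the groups overlapped. Acta2 (chromosome 19, 34241090 to 34255590, minus strand) was at 0.308, 0.235 and 0.115 CPM without and 0.595, 0.66 and 0.574 CPM with doxycycline. These levels are low, and the treated libraries were all higher (log2 fold change 1.46 with SE 0.44, edgeR adjusted p = 0.131). Tagln was at 0.693, 0.744 and 0.921 CPM without and 1.01, 1.85 and 1.26 CPM with doxycycline (log2 fold change 0.81 with SE 0.35, edgeR adjusted p = 0.28). Since 67.9% of the exonic bases of Tagln overlap Pcsk7 and Gm48529, its reads may belong in part to those genes. For S100a4, a calcium-binding protein gene used as a mesenchymal marker, 51.7% of exonic bases overlap Gm42674, and the level averaged 2.75 ± 0.552 CPM without and 3.12 ± 0.618 with doxycycline (SD, n = 3 each).

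Most of the collagens had lower values with doxycycline. The median log2 fold change of the 8 tested was -0.57, with 7 of 8 below 0 and 0 passing in edgeR, but the median was -0.28 with offsets that take out how each library depends on the length and GC content of transcripts. Col6a1 (chromosome 10, 76708792 to 76726168, minus strand) encodes a chain of type VI collagen, a beaded-filament collagen of the pericellular matrix. It was at 8.93, 8.89 and 6.48 CPM in lines 3, 4 and 5 without doxycycline and at 5.63, 2.44 and 2.33 CPM with it. The untreated libraries were all higher, and lines 4 and 5 had the lowest treated levels (log2 fold change -1.24 with SE 0.34, edgeR adjusted p = 0.0991; DESeq2 adjusted p = 0.00916). Its partner chain gene Col6a2, at 76595762 to 76623630 on the same chromosome and strand, was at 1.15, 1.84 and 1.3 CPM without and 0.961, 0.66 and 0.535 CPM with doxycycline. Col6a2 thus showed the same order of groups (log2 fold change -1 with SE 0.36, edgeR adjusted p = 0.195). Col18a1 (chromosome 10, 77052178 to 77166548, minus strand), which encodes the basement membrane collagen that releases endostatin, was at 183, 235 and 206 CPM without and 157, 113 and 149 CPM with doxycycline. The groups did not overlap (log2 fold change -0.57 with SE 0.16, edgeR adjusted p = 0.106; DESeq2 adjusted p = 0.0408). With the offsets for length and GC content the log2 fold change of Col18a1 was -0.26.

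The fibrillar collagens were scarce. Col1a1 averaged 0.515 ± 0.0555 CPM without and 0.464 ± 0.0836 with doxycycline (SD, n = 3 each), with a log2 fold change of -0.14 that became 0.13 with the offsets. Col1a2 had 1 count over the untreated libraries and 11 over the treated ones, Col5a2 had 0 and 12, and Col3a1 had 14 and 5. Col5a1 was at 2.19, 2.19 and 1.88 CPM without and 1.65, 0.726 and 1.57 CPM with doxycycline, and its groups did not overlap (edgeR adjusted p = 0.369). Col12a1, a collagen that associates with fibrils, stayed under 1 CPM in every library and was the single tested collagen with a value above 0 (log2 fold change 0.72 with SE 0.49).

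Type IV collagen, the network-forming collagen of basement membranes, is assembled from the products of Col4a1 and Col4a2, a pair of genes that lie head to head on chromosome 8. Their start sites are 21 bases apart on opposite strands, so the windows from 250 bases before to 50 bases after each start share 78 bases. Both windows are shown, since the genes shared a start region but not their values in line 4. The sequences are from RefSeq on GRCm38.p6, 5′ to 3′ along each gene's own strand, at chr8:11312777-11313076 (minus strand) for Col4a1 and chr8:11312555-11312854 (plus strand) for Col4a2. Capitals mark matches on either strand to the CCAAT box, searched as CCAAT, and to the GC box, searched as GGGCGG.
Col4a1: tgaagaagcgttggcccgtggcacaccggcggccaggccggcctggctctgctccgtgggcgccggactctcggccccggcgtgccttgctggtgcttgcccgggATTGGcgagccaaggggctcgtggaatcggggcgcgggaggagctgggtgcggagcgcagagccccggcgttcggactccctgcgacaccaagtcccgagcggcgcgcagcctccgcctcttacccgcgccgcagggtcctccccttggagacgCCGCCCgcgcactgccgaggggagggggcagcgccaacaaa
Col4a2: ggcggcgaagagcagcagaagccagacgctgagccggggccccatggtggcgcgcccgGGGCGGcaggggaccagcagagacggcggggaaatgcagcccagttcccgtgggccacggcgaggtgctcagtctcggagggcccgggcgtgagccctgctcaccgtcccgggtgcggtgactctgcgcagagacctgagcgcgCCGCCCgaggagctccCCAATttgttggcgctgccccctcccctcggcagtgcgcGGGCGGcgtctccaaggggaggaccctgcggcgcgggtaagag
Within the Col4a1 window a CCAAT box lies at bases 106 to 110 and a GC box at bases 260 to 265, both on the opposite strand. The Col4a2 window holds 3 GC boxes and a CCAAT box. Its GC box at bases 258 to 263 lies in the shared bases and is the GC box of the Col4a1 window, read from the other strand. GC content is 74% and 73.7%. Of all 32851 promoter windows in the RefSeq table, 37.4% hold CCAAT and 35.7% hold GGGCGG on either strand, against 16 and 21 of the 35 members that the table includes.

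Col4a1 was at 85.9, 131 and 109 CPM in lines 3, 4 and 5 without doxycycline and at 57.5, 71.9 and 90.7 CPM with it. The level was lower with doxycycline in each line, but the treated library of line 5 was above the untreated one of line 3 (log2 fold change -0.56 with SE 0.19, edgeR adjusted p = 0.181). With the offsets for length and GC content the log2 fold change of Col4a1 was -0.29. Col4a2 was at 42.3, 61 and 53.1 CPM without and 36.1, 67.6 and 43.4 CPM with doxycycline. Here line 4 was higher with the drug and the groups overlapped widely (log2 fold change -0.09 with SE 0.22, edgeR adjusted p = 0.899), and the sign turned with the offsets (0.22). The ratio of Col4a1 to Col4a2 counts was 2.03, 2.14 and 2.06 in the untreated lines and 1.59, 1.06 and 2.09 in the treated ones. It was thus nearly constant without doxycycline, close to that in treated line 5, and lowest in treated line 4. For Col6a1 to Col6a2 the ratio was 7.73, 4.83 and 4.97 without and 5.86, 3.7 and 4.36 with doxycycline, and the groups overlapped. Between 14 and 47 Col6a2 counts per library limit the precision of that ratio.

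**Figure D3:**
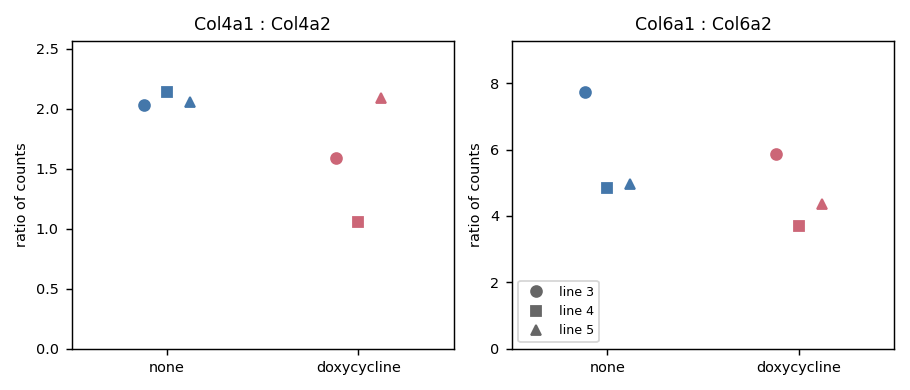
Ratio of read counts of Col4a1 to Col4a2 (left) and of Col6a1 to Col6a2 (right) in each library, without and with doxycycline, with the shape of a point giving the line. The Col4a1 to Col4a2 ratio is 2.03 to 2.14 in the untreated libraries and 1.06 in treated line 4.

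All 8 tested genes of matrix glycoproteins and matricellular proteins had values below 0, with a median log2 fold change of -0.45 (-0.44 with the offsets), and 0 of 8 passed in edgeR. Sparc (chromosome 11, 55394500 to 55423183, minus strand) was at 274, 278 and 274 CPM without doxycycline and 225, 185 and 157 CPM with it. The untreated libraries were almost equal and all treated ones were lower (log2 fold change -0.54 with SE 0.15, edgeR adjusted p = 0.0991; DESeq2 adjusted p = 0.032). Fn1 (chromosome 1, 71585520 to 71653200, minus strand), the gene of fibronectin, was at 295, 278 and 201 CPM without and 207, 87.1 and 196 CPM with doxycycline. Treated line 4 was far below the other libraries, and the groups overlapped (log2 fold change -0.66 with SE 0.28, edgeR adjusted p = 0.288). Spp1 (chromosome 5, 104435118 to 104441050, plus strand) was at 3000, 1980 and 2200 CPM without and 2460, 1470 and 1910 CPM with doxycycline. Line 3 had the highest level in either group, and the 3 lines kept their order (log2 fold change -0.30 with SE 0.23, edgeR adjusted p = 0.583). An overlap with Gm42793 covers 18.8% of the exonic bases of Spp1. The tenascin C gene Tnc was at 4.17 ± 0.861 and 2.91 ± 0.921 CPM (SD, n = 3 each), and the thrombospondin gene Thbs1 at 16.4 ± 2.67 and 13.6 ± 3.31 CPM, without and with doxycycline. Tgfbi, a secreted protein gene named for its induction by TGF-beta, was at 2.08, 1.68 and 1.23 CPM without and 0.915, 0.99 and 1.11 CPM with doxycycline. Its groups did not overlap, with the least difference in line 5 (log2 fold change -0.72 with SE 0.32, edgeR adjusted p = 0.296). Thbs2, the fibrillin gene Fbn1 and Postn had 12, 2 and 1 counts without doxycycline and 11, 12 and 3 with it.

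Ctgf and Cyr61, listed as Ccn2 and Ccn1 in newer annotations, encode matricellular proteins of the CCN family and are widely used as target genes of YAP and TAZ, the coactivators of TEAD transcription factors. Ctgf (chromosome 10, 24595442 to 24598683, plus strand) was at 113, 110 and 120 CPM without doxycycline and at 96.4, 87.3 and 77.9 CPM with it. Every treated library was below every untreated one (log2 fold change -0.39 with SE 0.12, edgeR adjusted p = 0.148), and 23.2% of the exonic bases of Ctgf overlap Gm15270. Cyr61 (chromosome 3, 145646976 to 145649981, minus strand) was at 23.5, 28.3 and 29.0 CPM without and 40.4, 16.3 and 22.1 CPM with doxycycline. Line 3 was higher with the drug and lines 4 and 5 were lower, so that the means were close, at 26.9 ± 3.00 and 26.3 ± 12.6 CPM (SD, n = 3 each), with the larger spread in the treated group. The promoter window of Cyr61 is shown because the lines parted at this gene. It lies at chr3:145649936-145650235 (RefSeq, GRCm38.p6, minus strand), with capitals for the TEAD motif, searched as CATTCC, and for GC boxes on either strand.
Cyr61: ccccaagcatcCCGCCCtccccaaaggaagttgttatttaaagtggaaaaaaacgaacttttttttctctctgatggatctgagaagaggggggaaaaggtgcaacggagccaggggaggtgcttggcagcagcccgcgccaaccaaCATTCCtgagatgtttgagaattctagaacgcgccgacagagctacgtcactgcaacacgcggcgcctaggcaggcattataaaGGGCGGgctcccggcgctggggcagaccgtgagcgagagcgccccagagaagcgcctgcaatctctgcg
CATTCC lies at bases 148 to 153 and GC boxes at bases 12 to 17 and 232 to 237. On either strand CATTCC is found in 14.7% of the 32851 windows and in 8 of the 35 members in the table, and the SMAD motif CAGACA in 21% and in 13 of 35. A match gives the letters only and was not tested as a site.

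The 3 tested matrix metalloproteinase genes had values below 0, with a median log2 fold change of -0.38 (-0.27 with the offsets), and 0 passed in edgeR. Of the 3 inhibitor genes 1 was below 0, and their median was 0.05. Mmp14 (chromosome 14, 54431612 to 54445364, plus strand) encodes the membrane-bound MT1-MMP. It was at 55.2, 65.7 and 58.9 CPM without and 50.1, 42.7 and 45.7 CPM with doxycycline. The groups did not overlap (log2 fold change -0.38 with SE 0.13, edgeR adjusted p = 0.172), and the log2 fold change was -0.24 with the offsets. Mmp13, a collagenase gene, was at 69.4, 57.0 and 62.6 CPM without and 46.7, 44.5 and 79.5 CPM with doxycycline, where line 5 went against lines 3 and 4. The stromelysin gene Mmp10 showed the same division of lines, at 5.27, 4.39 and 4.26 CPM without and 2.47, 2.9 and 4.9 CPM with doxycycline. The gelatinase genes Mmp2 and Mmp9 and the stromelysin gene Mmp3 had 3, 4 and 12 counts without doxycycline and 8, 7 and 21 with it. Timp2, whose product inhibits these enzymes and also assists in activating the Mmp2 protein, was at 274, 293 and 285 CPM without and 322, 203 and 213 CPM with doxycycline. Treated line 3 was the highest library and treated lines 4 and 5 the lowest (log2 fold change -0.21 with SE 0.18, edgeR adjusted p = 0.617). Timp1 was at 23.5 ± 0.732 and 24.3 ± 4.36 CPM, without and with doxycycline, and its log2 fold change of 0.05 became -0.03 with the offsets. Timp3, which shares 21.3% of its exonic bases with Syn3, was at 10.1 ± 1.05 and 11.6 ± 2.22 CPM (SD, n = 3 each).

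Lox and Loxl2 encode oxidases that cross-link collagen. Lox had 2 counts without and 0 with doxycycline, below the level of 3 counts used as a floor. Loxl2 (chromosome 14, 69609068 to 69695834, plus strand) was at 25.2, 32.8 and 27.2 CPM without and 28.1, 41.9 and 25.9 CPM with doxycycline. Line 4 was the highest in either group (log2 fold change 0.17 with SE 0.19, edgeR adjusted p = 0.722), and without treated line 4 the value was -0.07.

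Integrins bind the matrix, and the subunits encoded by Itga5 and Itgb1 form the fibronectin receptor. Itga5 (chromosome 15, 103344286 to 103366763, minus strand) was at 22.7, 25.1 and 27.5 CPM without and 17.6, 17.3 and 20.5 CPM with doxycycline. Treated levels were below untreated levels in all libraries (log2 fold change -0.44 with SE 0.14, edgeR adjusted p = 0.162). With the offsets for length and GC content the log2 fold change of Itga5 was -0.20. Itgb1 (chromosome 8, 128685654 to 128733200, plus strand) was at 715, 683 and 669 CPM without and 649, 535 and 677 CPM with doxycycline, with treated line 4 alone standing apart. Itgav, the subunit gene of the vitronectin receptors, was at 41.9 ± 5.44 and 37.7 ± 8.21 CPM, without and with doxycycline (SD, n = 3 each).

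Among the members that encode TGF-beta ligands, only Tgfb1 (chromosome 7, 25687002 to 25705077, plus strand) passed the filter on low counts. Tgfb1 had the smallest p of all members. It was at 34.9, 44.2 and 37.7 CPM in lines 3, 4 and 5 without doxycycline and at 30.9, 21.9 and 24.3 CPM with it. No treated library reached the untreated range, and line 3 came closest. Its mean was 38.9 ± 4.78 CPM without and 25.7 ± 4.65 with doxycycline (SD, n = 3 each; log2 fold change -0.60 with SE 0.16, edgeR adjusted p = 0.0981; DESeq2 adjusted p = 0.0394). Tgfb2 had 8 counts without and 10 with doxycycline. The ligand gene Tgfb3 is not a member, and it passed the filter in the list of TGF-beta receptors and signalling.

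**Figure D4:**
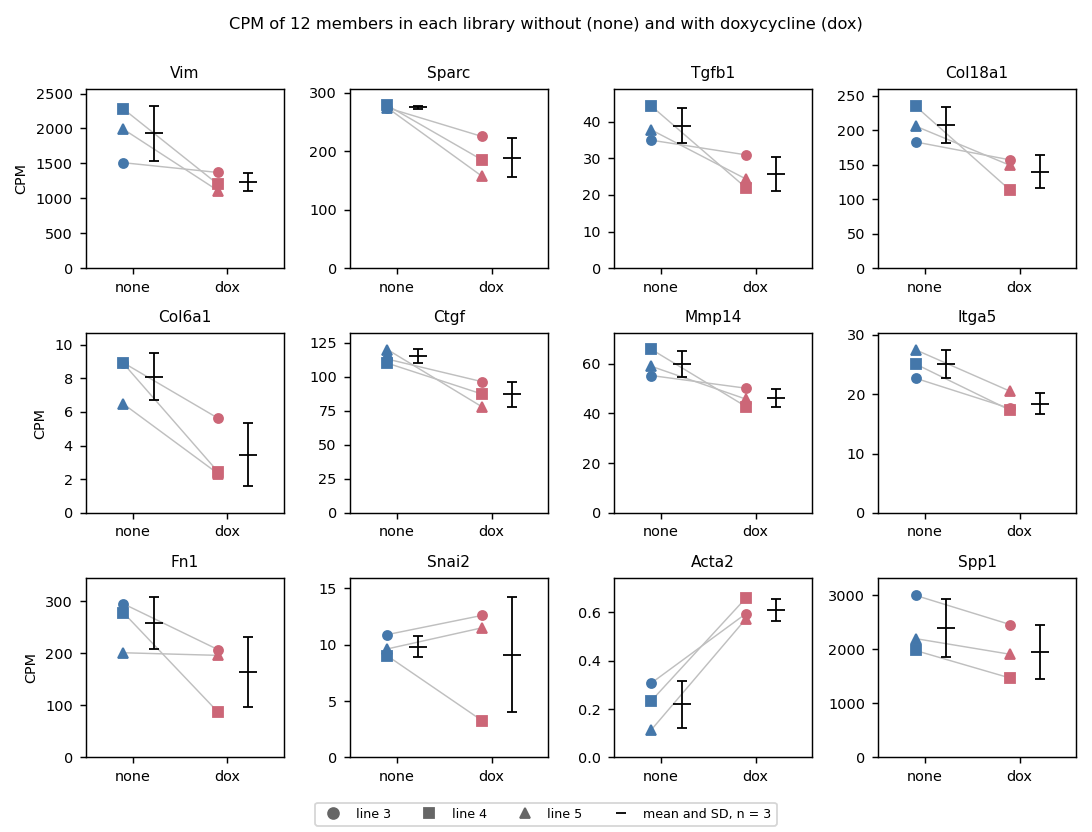
CPM of 12 members in each library, without (none) and with doxycycline (dox), on linear axes from 0. Shapes give the line, grey lines join the libraries of a line, and the bars beside them give the mean and SD of 3 libraries; the groups do not overlap in Vim, Sparc, Tgfb1, Col18a1, Col6a1, Ctgf, Mmp14, Itga5 and Acta2 and overlap in Fn1, Snai2 and Spp1.

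Within each line the ratio of the treated to the untreated library was taken after adding 0.5 to both CPM values. The median log2 ratio of the 36 tested members was -0.18 in line 3, -0.39 in line 4 and -0.24 in line 5, and 24, 28 and 26 members were below 0. Over all genes tested the medians were 0.00033, -0.01 and -0.0038 in these lines. Npm1 itself had log2 ratios of -4.87, -2.92 and -2.27 in these lines. Line 3 thus had the lowest treated Npm1 level, and line 4 the lowest median over these members. With 1 library per line and condition, a relation of the members to the Npm1 level was not tested. In 19 of the 36 members the ratio was below 0 in all 3 lines and in 4 it was above 0 in all 3. Of all 14531 genes tested, 2835 were below 0 in all 3 lines and 2778 above 0. Untreated line 4 was the highest of the 6 libraries in 12 members and the lowest in 0, whereas treated line 4 was the lowest in 15 and treated line 5 in 9. The same counts were not taken over all genes, so these are not read as particular to the members. Ratios in line 4 included -1.67 for both Fn1 and Col6a1 and -1.34 for Snai2. Without the treated library of line 3 the median over the members was -0.40.

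**Figure D5:**
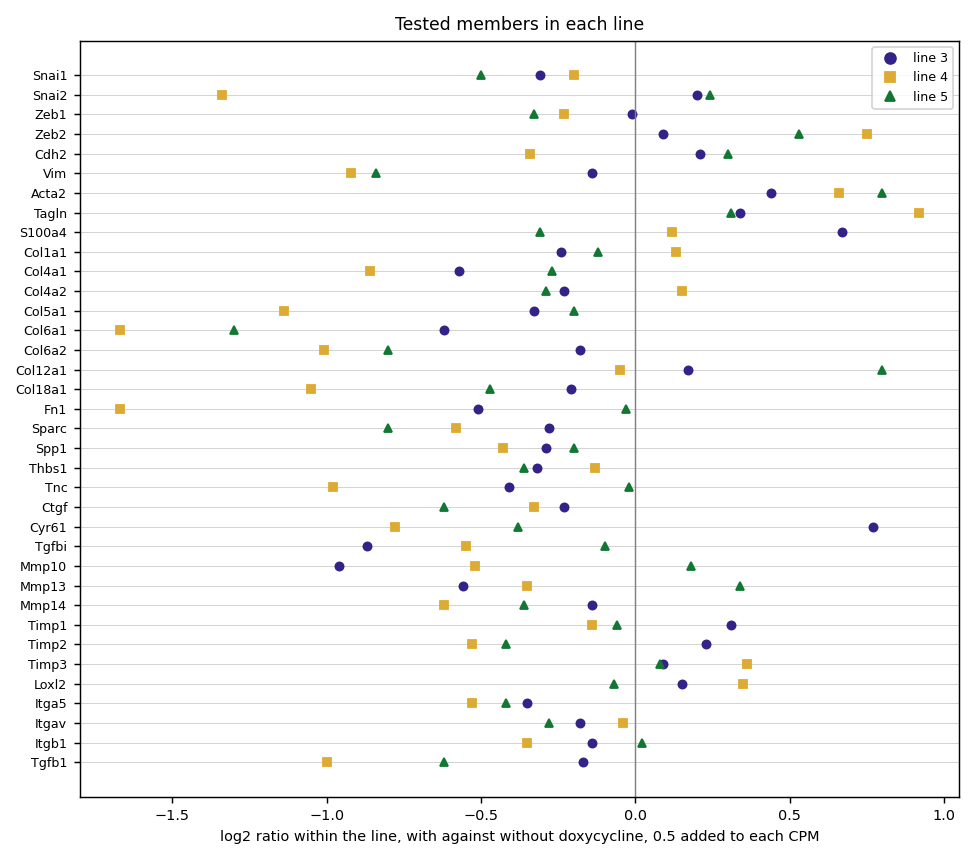
Log2 ratio of treated to untreated CPM (0.5 added to each) of the 36 tested members within line 3, line 4 and line 5. Fn1, Col5a1, Snai2 and Col18a1 have their lowest ratio in line 4, and Cyr61 parts the lines, at 0.77 in line 3 and -0.78 in line 4.

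The 3 lines were also compared with each other in a model with doxycycline and line, which leaves 2 residual degrees of freedom. EdgeR called 0 of 36 members different between lines, and 0% of all 14531 genes. At an unadjusted p under 0.05, 6 members differed between lines, Col4a1, Col4a2, Spp1, Thbs1, Loxl2 and Itgav, where 4.59% of all genes did. Spp1 was highest in line 3 and Loxl2 and Col4a2 in line 4, in both conditions (edgeR adjusted p = 0.868 for each).

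Other genes of the same pathways were read from lists to see whether the values of the 49 genes were shared. All 23 genes of TGF-beta receptors and signalling were tested, 20 had values below 0 and the median log2 fold change was -0.38, or -0.16 with the offsets. At an unadjusted p under 0.05, 8 of the 23 were lower and 0 were higher. Of 29 genes for collagen synthesis and processing 23 were tested and 0 passed in edgeR, with 5 lower and 1 higher at an unadjusted p under 0.05 and a median of -0.23. The collagen-trimming protease gene Bmp1 averaged 44.2 ± 0.656 CPM without and 33.3 ± 2.02 with doxycycline, and the oxidase gene Loxl4 at 15.8 ± 2.00 and 10.8 ± 0.415 CPM (SD, n = 3 each, with edgeR adjusted p values of 0.124 and 0.117). Of 30 other collagen genes 10 were tested and 0 passed in edgeR, with 1 lower at an unadjusted p under 0.05, and the median of -0.25 became 0.02 with the offsets. Col27a1, a fibrillar collagen gene, had the smallest p among them, at 3.11 ± 0.562 and 1.70 ± 0.236 CPM (SD, n = 3 each; edgeR adjusted p = 0.141), followed by Col20a1 at 2.36 ± 0.525 and 1.41 ± 0.498 CPM.

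Basement membrane genes other than collagens had a median log2 fold change of -0.32, or -0.10 with the offsets, with 10 of 11 tested genes below 0. The laminin chain gene Lamb3 fell from 70.6, 98.9 and 88.4 CPM to 34.8, 41.9 and 57.7 CPM (log2 fold change -0.94 with SE 0.20, edgeR adjusted p = 0.0366; 0.0917 with the offsets). This call was also lost without any 1 of the untreated libraries (edgeR adjusted p = 0.0983, 0.221 and 0.128 for lines 3, 4 and 5) and without treated line 4 (0.0737). Among other integrins 18 of 23 were tested, 3 fell and 2 rose. Itgb4, a subunit of the laminin receptor of hemidesmosomes, fell from 51.8, 69.3 and 54.7 CPM to 24.9, 24.4 and 31.4 CPM (log2 fold change -1.12 with SE 0.16, edgeR adjusted p = 0.00503), although not without both libraries of line 4 (edgeR adjusted p = 0.108). The other 4 are integrins of white blood cells. They changed in the direction of most lymphocyte or macrophage markers, and Itgam is itself in the macrophage list. Itgb7 changed less, with a log2 fold change of -1.10 against a median of -4.69 for the tested T and NK lymphocyte markers. The part of blood cells in these values was not tested. Itgal, of lymphocytes, fell from 3.20 ± 0.997 to 0.516 ± 0.241 CPM and Itgb7 from 14.1 ± 2.29 to 6.61 ± 1.99 CPM. Itgam and Itgax, of myeloid cells, rose from 0.0902 ± 0.0587 to 1.39 ± 0.696 CPM and from 0.142 ± 0.0824 to 1.84 ± 0.83 CPM (SD, n = 3 each). Overlapping genes cover 68.7% of the exonic bases of Itgam. Of these 4, Itgb7 was called no longer with the replicate block (edgeR adjusted p = 0.0509) or the offsets (0.0814). Without the untreated library of line 3 the edgeR adjusted p was 0.0903 for Itgal, 0.129 for Itgb7, 0.0517 for Itgam and 0.0733 for Itgax. Without that of line 4 it was 0.0591 for Itgal, 0.263 for Itgb7 and 0.0631 for Itgam, and Itgb7 was not called without the untreated or the treated library of line 5 either (0.163 and 0.0771).

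Of 28 other proteases and inhibitors 16 were tested. The macrophage elastase gene Mmp12 rose, with 1 count over the untreated libraries and 1647 over the treated ones (edgeR adjusted p = 0.000165). All 20 genes of YAP and TAZ, their partners and targets were tested and 0 passed in edgeR, with 2 lower at an unadjusted p under 0.05 and a median of -0.18. The tissue factor gene F3 averaged 158 ± 20.6 CPM without and 110 ± 19.0 with doxycycline, and the ectonucleotidase gene Nt5e at 118 ± 4.67 and 69.7 ± 33.9 CPM (SD, n = 3 each, with edgeR adjusted p values of 0.129 and 0.205). Of 20 actin-bundling genes and targets of the serum response factor 16 were tested and 0 passed in edgeR, with 4 lower at an unadjusted p under 0.05 and a median of -0.12. Actg1, a cytoplasmic actin gene, was at 551 ± 88.1 and 348 ± 99.1 CPM, and the filamin gene Flna at 1160 ± 155 and 876 ± 68.5 CPM (SD, n = 3 each, with edgeR adjusted p values of 0.162 and 0.232). Acta2 and Tagln thus had higher values while the median of these other actin genes was below 0. Beside the counts of genes that passed in these lists stands the 2.28% of all genes that edgeR called. For the counts at an unadjusted p under 0.05 the shares of all genes were 7.96% lower and 8.33% higher. In a bulk library fewer cells of a type and less RNA per cell cannot be told apart.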

How the data were processed

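Total RNA of 6 cultures was sequenced, 1 library per line and condition. The authors deposited raw read counts per gene. The submitters' processing notes name STAR, HTSeq, CASAVA, Picard, bedtools, DESeq2 and R 3.3.0 with build mm10. Annotation release and strand setting are not given in the sources used, and overlapping genes cannot be told apart. The 5 rows that name no gene held 43.7% to 47.7% of reads and were left out. Symbols came from GENCODE M21 (48144 of 48526 identifiers), and older symbols from RefSeq. The members, lists and alternatives were chosen with earlier results of these data known.

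Tests on the counts used edgeR 4.0.16 in R 4.3.3 (filterByExpr with a minimum count of 10, TMM, quasi-likelihood F test, Benjamini-Hochberg adjustment over 14531 genes, threshold 0.05). The biological coefficient of variation was 18%, and precision is limited by 3 libraries per group. Standard errors were derived from the fold change and the F statistic. P-values measure only the spread between the 3 lines, since no line had a second culture. DESeq2 1.42.0 was an alternative, as were RLE scaling, other filters, offsets for length and GC content, left-out libraries and the line as a replicate block. Procedures were also run on simulated counts with the same spread in both groups. The treated libraries here differed more among themselves, so that run does not measure how the procedures perform on these data. Described in full were the 12 members of smallest p, the 6 of highest level per kilobase and the 4 of smallest p between lines; from each other list, genes that passed (at most 4) or otherwise the 2 of smallest p; all remaining members are accounted for.

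Samples are paired by line number, as each number is 1 stable line. To check this, the correlation across genes of each library's deviation from its group mean was 0.0048, 0.0674 and 0.0276 for libraries of the same line (3, 4 and 5) and -0.102 to 0.067 for libraries of different lines. The pairing therefore rests on the lines' origin and not on this check. No source used here gives batches, and batch and treatment cannot be told apart. A gene of the pathway lists that passed is not reported here. A RefSeq table (GRCm38.p6) held promoters of 35 of the 49 members.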

Additional observations from a re-analysis of the deposited data

Results flagged for a closer look

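Cyr61 was the 1 member with log2 ratios beyond 0.5 in opposite directions in different lines, 0.77 in line 3 and -0.78 in line 4, with -0.38 in line 5. The difference was not tested, since each line had 1 library per condition.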

How the results depend on the processing

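The count of 332 genes called became 1052 without the filter on low counts, 171 at a mean of at least 1 CPM, 702 with DESeq2 and 593 at an adjusted p under 0.1. Leaving out libraries or lines gave 62 to 1551. With the replicate block 243 genes and 0 members were called. For the members the count of 0 became 7 without the filter, 5 with DESeq2 and 3 at an adjusted p under 0.1 (Tgfb1, Col6a1 and Sparc), and lay between 0 and 8 with libraries or lines left out. Their median log2 fold change lay between -0.40 (without treated line 3) and -0.21 (without untreated line 4) with libraries or lines left out, and was -0.15 with DESeq2 and -0.16 without the filter, where more members were fitted. Between lines, 1 member was called without the filter (Snai2) and 0 to 1 with a library left out (Cyr61, without untreated line 3). How many of all genes these refits called between lines was not counted. The log2 fold change of Col4a2 turned from -0.09 to 0.22 with the offsets and 0.18 with offsets and block, and lay between -0.39 and 0.10 with libraries or lines left out. That of Loxl2 lay between -0.07 and 0.30 with libraries or lines left out and was 0.31 with the offsets. In 288 refits of 17 named members the sign was kept in 282 and the threshold was passed in 24. The refits used the same libraries or some of them, and 12 of the 17 members were chosen by smallest p. Kept signs are therefore not independent support for a direction. The causes of the differences between fits were not tested. Depth limits the 13 untested members, with at most 11 counts per library, and Acta2, Col1a1 and Col12a1, under 1 CPM throughout.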
